A study of Mus musculus with 6 samples.

Results

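Genes that handle arginine, nitric oxide and polyamines were followed in RAW 264.7 cells, a mouse macrophage-like line, after 15-HETE, a hydroxylated product of arachidonic acid. The set was given as 10 genes, Nos2, Ass1, Arg1, Arg2, Odc1, Azin1, Srm, Sms, Sat1 and Smox, of which 9 had a probe with that symbol alone in the platform annotation, out of 13840 genes read this way. The annotation used here lists no probe for Arg2, the mitochondrial arginase, which was not analysed here. The 9 genes had 10 annotated probes, and 1 more was added because the study's own table names it Smox, which makes 11 of 33012 probes. Each gene was read at its brightest probe over all 6 arrays.

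The 15-HETE + LPS group was 3 biological replicates given 40 μM 15(S)-HETE and at once 1 μg/mL LPS, the bacterial endotoxin that activates macrophages. The LPS group was 3 biological replicates given the same LPS without 15-HETE. RNA was taken at 24 h, and 6 wells were pooled for each replicate. Every sample was LPS-stimulated and no unstimulated sample was analysed here, so the values do not show what LPS itself did to these genes. The labels describe no vehicle for the LPS samples.

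Macrophages use arginine in competing ways. Inducible nitric oxide synthase, encoded by Nos2, turns it to nitric oxide and citrulline, and argininosuccinate synthase, Ass1, starts the return of citrulline to arginine. Arginase 1, Arg1, splits arginine to ornithine and urea. Ornithine decarboxylase, Odc1, then makes putrescine, the synthases Srm and Sms build spermidine and spermine from it, and Sat1 and Smox, an acetyltransferase and an oxidase, break these polyamines down again.

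RefSeq promoter windows, which reach from 250 bases before to 50 bases after a start site, were found for 5 of the 10 genes, Ass1, Odc1, Sms, Sat1 and Smox. The windows of Smox and Ass1 are shown because these genes had the largest positive fold changes of the set. Both lie on chromosome 2 of GRCm38.p6 on the plus strand, Smox at chr2:131491612-131491911 and Ass1 at chr2:31470020-31470319. Capitals mark matches on either strand to a loose NF-kB pattern, GGG and CC with any 5 bases between, and to the E-box CACGTG.
Smox: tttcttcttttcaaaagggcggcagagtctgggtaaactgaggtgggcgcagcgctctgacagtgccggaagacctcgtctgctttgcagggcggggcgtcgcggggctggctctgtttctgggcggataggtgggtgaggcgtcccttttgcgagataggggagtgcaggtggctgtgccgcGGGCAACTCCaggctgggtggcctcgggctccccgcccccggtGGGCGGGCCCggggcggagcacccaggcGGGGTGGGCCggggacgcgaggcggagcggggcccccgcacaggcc
Ass1: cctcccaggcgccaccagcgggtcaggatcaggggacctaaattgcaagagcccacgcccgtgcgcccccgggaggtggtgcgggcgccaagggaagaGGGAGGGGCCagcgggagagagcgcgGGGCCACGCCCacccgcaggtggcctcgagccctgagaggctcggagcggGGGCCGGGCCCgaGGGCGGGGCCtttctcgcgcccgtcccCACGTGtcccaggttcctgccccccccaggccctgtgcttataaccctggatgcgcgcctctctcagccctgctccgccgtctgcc
The NF-kB pattern occurred in 50.8% of the 32851 promoter windows of this length, and Smox and Ass1 are among them. The E-box, the site bound by MYC and related factors, occurred in 7.15% of all windows and once in that of Ass1, from base -36 to -31 counted from the start site. In Ass1 some matches to the NF-kB pattern overlap each other. A match to these letters is a description of the sequence and does not show binding.

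The arrays gave 1 chemiluminescent intensity per probe, and the deposited values are quantile normalized, so all 6 samples share 1 distribution with a median of 837. Log2 intensities correlated across probes at 0.955 to 0.962 between 15-HETE + LPS replicates, at 0.972 to 0.979 between LPS replicates and at 0.943 to 0.962 between groups. The number of arrays limits the precision. Of 10 macrophage marker genes 7 were measured, with Lyz2, Fcgr1, Spi1 and Adgre1 at or above percentile 94.7 of probe intensity, Itgam and Ptprc at 87.4 and 82.7, and Marco at 54.0. Their log2 fold changes ran from -0.27 for Marco to 0.51 for Fcgr1. The hepatocyte markers, which matter here because liver is rich in Arg1 and Ass1, lay between percentiles 4.4 and 56.1 at 6 of 7 genes measured, with summed intensities of 2180 to 3295 after 15-HETE and 2613 to 2825 in LPS samples. The fibroblast marker Dcn lay at percentile 78.1, and its log2 difference was -1.30 (limma adjusted p = 0.0587). At the 6 fibroblast markers the summed intensity was 13121 to 15431 after 15-HETE and 22049 to 27747 in LPS samples, and the part of this in the results was not tested. Most of that gap lay at Dcn, with means of 5822 after 15-HETE and 14584 in LPS samples, while the other 5 had overlapping groups, from -0.90 for Lum to 0.48 for Col3a1. No gene of the macrophage, hepatocyte, fibroblast, lymphocyte, granulocyte or housekeeping lists passed the test. When the prior variance of limma followed the intensity (the intensity trend), 3 of these genes were called. Dcn (adjusted p = 0.00298) and the granulocyte marker Mpo (-1.38, adjusted p = 0.0290) were lower. The housekeeping gene Tbp was higher (0.49, adjusted p = 0.0479). That fit called 5.85% of all genes higher and 5.33% lower. Of 5 granulocyte markers measured, 3 had a log2 fold change below 0 and 2 above, Ltf (0.10) and S100a8 (0.47). S100a8 lay at percentile 96.5. The lymphocyte markers ran from -0.36 to 0.54, at percentiles 35.3 to 60.8. Of 9 housekeeping genes measured, 7 were below 0 and 2 above, with a median of -0.12. Their groups did not overlap for 6 of the 9, 5 lower and 1 higher, against 35.3% of all genes.

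Smox, the spermine oxidase, was the 1 gene of the set that passed. Its intensity was 236303, 260195 and 247530 after 15-HETE, against 105566, 78969.6 and 87175.5 in LPS samples. All treated samples were above all LPS samples. The means were 248009 ± 11953 and 90570.3 ± 13619 (SD, n = 3 each), a log2 fold change of 1.46 (95% interval 1.00 to 1.92, standard error 0.19, adjusted p = 0.0429 from limma) or 2.76-fold.

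The added probe, which the study's table names Smox and the annotation leaves without a gene, was much dimmer. It read 2582, 2383 and 1517 after 15-HETE and 465.9, 366.1 and 430.0 in LPS samples. Again the groups did not overlap, and the change was 2.33 on the log2 scale (95% interval 1.69 to 2.97, adjusted p = 0.0348 from limma). The study picked this probe on the same arrays, so it is no independent evidence. The brighter probe 864828 is not in that table of selected genes. It was read in the same 6 samples, so it is no independent evidence either. The change at the dimmer probe exceeded that at the brighter one by 0.87 on the log2 scale (exact permutation test of the difference per sample, two-sided p = 0.1, the smallest that 3 samples against 3 allow).

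Smox lost its call when any 1 sample was dropped, with an adjusted p of 0.0677 to 0.194 and log2 fold changes of 1.37 to 1.58, and such fits called 0 of all probes. The methods' t-test gave an adjusted p of 0.150 over all probes and 0.0515 over the 5676 probes past its fold rule. Limma with the intensity trend gave an adjusted p of 0.000758.

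In all, limma called 1 of the 9 genes higher and 0 lower. On the whole array it called 0.509% of probes higher and 0.442% lower, and among genes at their brightest probe 0.759% and 0.368%. At an unadjusted p under 0.05, 3 of the 9 were higher and 1 lower, against 10.7% and 10.6% of all genes. With the intensity trend Smox and Ass1 were called higher and Nos2 lower, where that fit called 5.85% of all genes higher and 5.33% lower. The groups did not overlap for 4 of the 9 genes, Smox, Ass1, Sat1 and Nos2, against 35.3% of all genes. The median log2 fold change was -0.03 over the 9 genes and 0.02 over all genes.

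**Figure D1:**
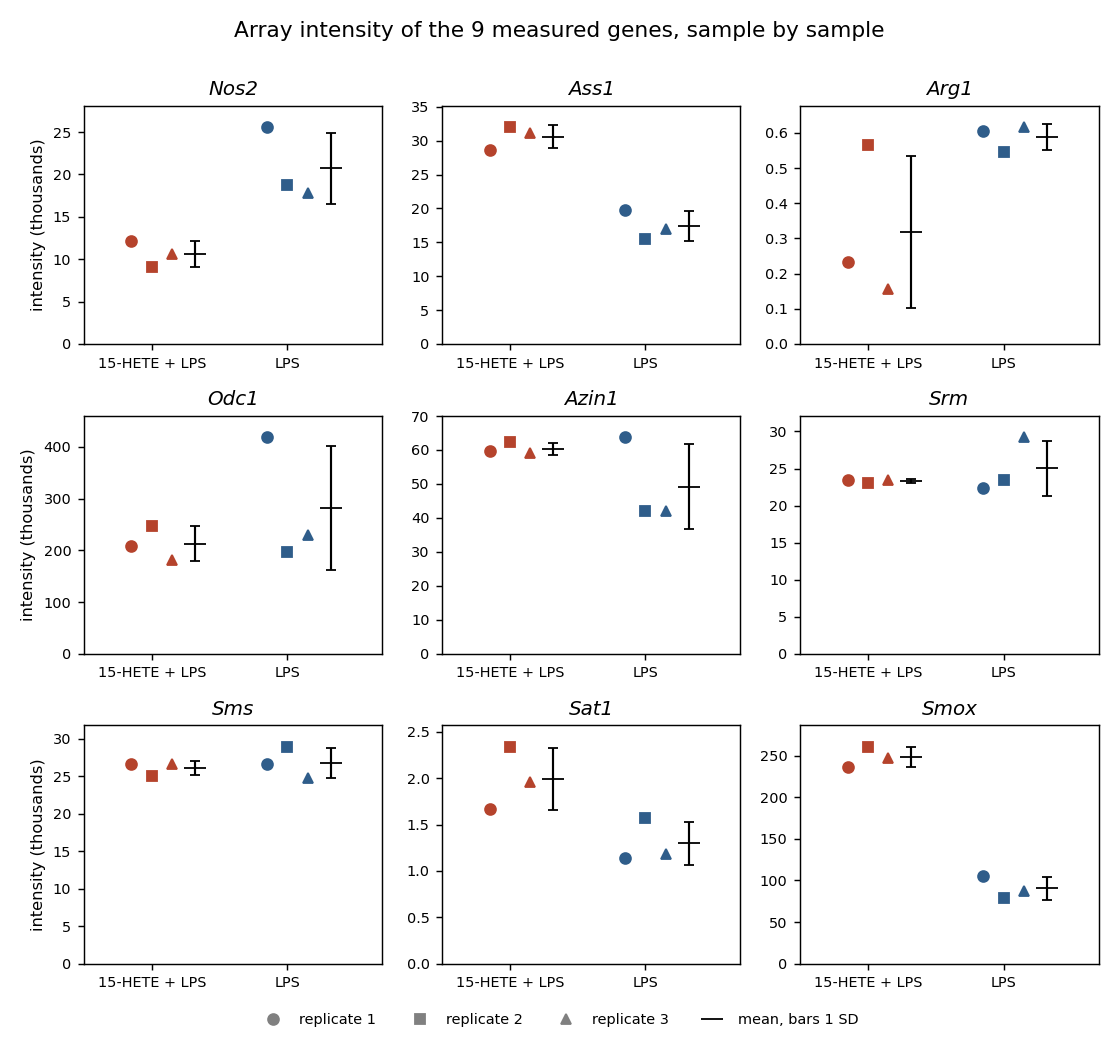
Intensity divided by 1000 (y axis, from 0, its own scale in each panel) of the brightest probe of each of the 9 genes in 15-HETE + LPS and LPS samples. Symbols are single samples and bars the mean ± 1 SD (n = 3 each). The groups stand apart for Nos2, Ass1, Sat1 and Smox, and LPS replicate 1 is the highest sample for Odc1 at 418675.

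Nos2, the nitric oxide synthase of activated macrophages, did not pass. Its intensity was 12094, 9076 and 10635 after 15-HETE, against 25548, 18778 and 17786 in LPS samples. Every treated sample was below every LPS sample. The means were 10601.5 ± 1509 and 20704 ± 4224 (SD, n = 3 each), a log2 fold change of -0.96 (95% interval -1.51 to -0.41, adjusted p = 0.102 from limma). LPS replicate 1 was 1.40-fold above the mean of the other LPS replicates on the log scale, and without it the log2 fold change was -0.80. With the intensity trend Nos2 was called lower (adjusted p = 0.0102). The RNA came from whole wells, so fewer cells expressing a gene and less of its RNA per cell cannot be told apart.

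Ass1, which feeds citrulline back to arginine, had intensities of 28637, 31963 and 31174 after 15-HETE, against 19829.9, 15510 and 16974 in LPS samples. The 3 treated samples were the 3 highest. The means were 30591 ± 1738 and 17438 ± 2197 (SD, n = 3 each), with a log2 fold change of 0.82 (95% interval 0.37 to 1.26, adjusted p = 0.0925 from limma), so Ass1 did not pass. With the intensity trend it was called higher (adjusted p = 0.00602). Its coefficient of variation was 5.68% in treated and 12.6% in LPS samples. Nos2 and Ass1, which act in the same citrulline cycle, thus had fold changes of opposite sign.

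Arg1, the cytosolic arginase of alternatively activated macrophages, was the dimmest of the 9 genes, at percentile 31.7 of probe intensity. It read 232.7, 564.2 and 156.8 after 15-HETE, against 604.6, 545.2 and 615.6 in LPS samples. The treated samples spread widely, with a coefficient of variation of 68.2% against 6.44% in LPS samples, and replicate 2 lay within the LPS range. The log2 fold change was -1.10 (95% interval -2.24 to 0.03, adjusted p = 0.265 from limma) and ran from -1.62 without treated replicate 2 to -0.70 without treated replicate 3. The signal-to-noise flags of the scanner are not in the values used here, so whether Arg1 was above background was not tested.

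Odc1, which makes putrescine and is the first enzyme of polyamine synthesis, was bright, at percentile 97.6. Its intensity was 208939, 247830.1 and 180935 after 15-HETE, against 418675, 196355 and 229207 in LPS samples. The groups overlapped, and LPS replicate 1 alone was 1.97-fold above the mean of the other LPS replicates on the log scale. The log2 fold change was -0.34 (95% interval -1.13 to 0.46, adjusted p = 0.613 from limma), and -0.01 without that sample.

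LPS replicate 1 was also the highest LPS sample for Azin1, the antizyme inhibitor, which frees ornithine decarboxylase from its inhibitor. Azin1 read 59617, 62329 and 59112 after 15-HETE, and 63753, 41918 and 41983 in LPS samples. The treated samples lay close together and all lay inside the LPS range. The log2 fold change was 0.32 (95% interval -0.23 to 0.88, adjusted p = 0.478 from limma) with all samples and 0.52 without LPS replicate 1. Myc, a transcription factor known to act on Odc1, was highest in the same LPS sample, at 164684, 166971 and 135247 after 15-HETE and 290174, 158875 and 168859 in LPS samples. LPS replicate 1 stood apart for other genes too. It was the highest LPS sample for the housekeeping genes Pgk1 (1280013 against 669477 and 624397.5) and Ywhaz (1104441 against 632214.5 and 644547). It was the lowest for Ly96 (72514 against 136332.5 and 138938) and S100a8 (57958 against 180935 and 165758). Its log2 intensities correlated with the other LPS replicates at 0.9717 and 0.9735, and those 2 with each other at 0.9786. Why LPS replicate 1 stood apart was not tested.

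The spermidine synthase Srm and the spermine synthase Sms lay nearest to 0. Srm read 23493, 23057 and 23403 after 15-HETE, against 22310, 23493 and 29219 in LPS samples. Its treated samples varied by a coefficient of variation of 0.987%, those with LPS alone by 14.8%. The log2 fold change was -0.09 (95% interval -0.54 to 0.36, adjusted p = 0.823 from limma), and the sign turned without LPS replicate 3.

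Sms read 26630.2, 25059.7 and 26573 after 15-HETE, and 26630.2, 28875 and 24783 in LPS samples. A value that recurs between samples marks the same rank in the normalized arrays. The log2 fold change was -0.03 (95% interval -0.44 to 0.38, adjusted p = 0.929 from limma). A dimmer Sms probe, 772734, had 2983, 3027 and 1839 after 15-HETE and 2325, 1579 and 1637 in LPS samples, with a log2 fold change of 0.49 (adjusted p = 0.400). Its groups overlapped, and the difference of 0.52 between the 2 probes had an exact permutation p of 0.2 (two-sided).

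Sat1, which acetylates spermidine and spermine for export or oxidation, had intensities of 1672, 2335 and 1958 after 15-HETE, against 1141, 1565 and 1185 in LPS samples. The groups stood apart by a narrow gap between treated replicate 1 and LPS replicate 2. The log2 fold change was 0.62 (95% interval 0.07 to 1.17, adjusted p = 0.211 from limma) and did not pass, also not with the intensity trend (adjusted p = 0.228).

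**Figure D2:**
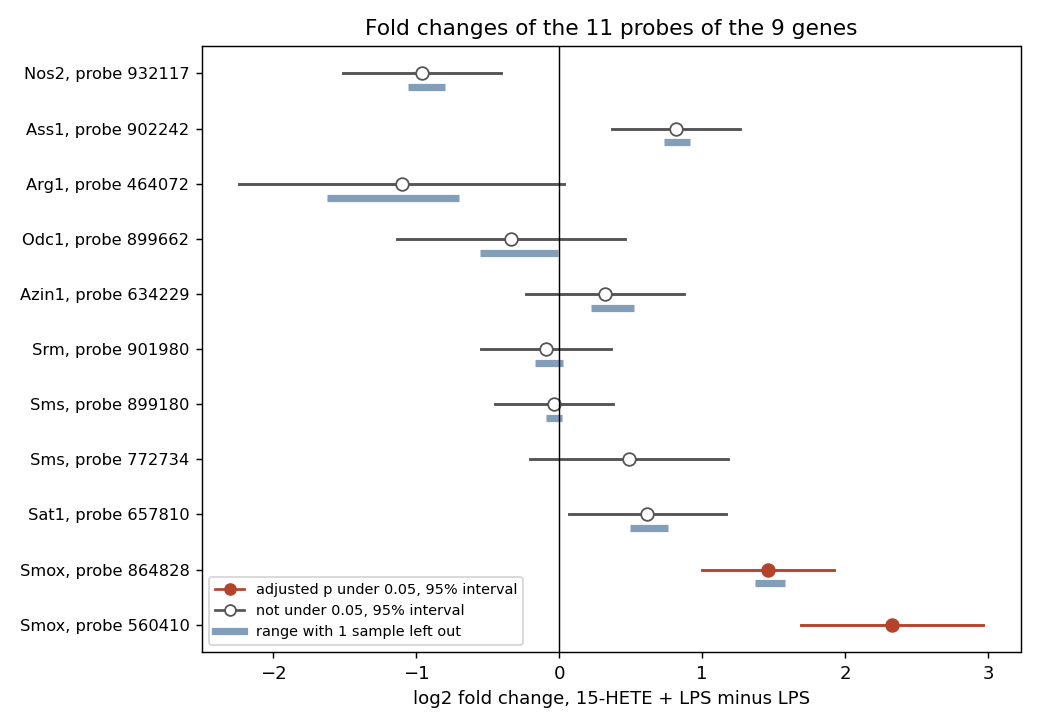
Log2 fold change (x axis, 15-HETE + LPS minus LPS) of the 11 probes with the 95% interval from limma, filled where the adjusted p was under 0.05. Blue bars give the range at the brightest probe with any 1 of the 6 samples left out. Both Smox probes are filled, at 1.46 and 2.33, and Arg1 has the widest interval, -2.24 to 0.03.

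Polyamine levels are also held by antizymes, which bind ornithine decarboxylase and send it to the proteasome. Of 17 other genes of polyamine synthesis, breakdown and control 10 had a probe. Limma called 1 higher and 0 lower, against 0.759% and 0.368% of all genes, and the median log2 fold change was -0.04. The gene that passed was the antizyme Oaz2. It read 32438, 33929 and 32164 after 15-HETE, against 14844, 15809 and 14601 in LPS samples. Its log2 fold change was 1.12 (95% interval 0.73 to 1.52, adjusted p = 0.0498 from limma), or 2.18-fold. The robust prior of limma gave an adjusted p of 0.0563, and leaving out 1 sample 0.0709 to 0.195.

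Oaz1, the most widely used antizyme, was brighter in every treated sample as well, at 224405, 211003 and 199682 after 15-HETE against 99674.5, 130494 and 140281 in LPS samples. It did not pass (log2 fold change 0.79, adjusted p = 0.115 from limma), but was called with the intensity trend (adjusted p = 0.0125). Oaz3, the antizyme of the testis, had 0.01. Eif5a, the translation factor that carries the spermidine-derived residue hypusine, had 0.57 (adjusted p = 0.152), and with the trend it was called too.

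The arginine transporters had no gene called among 6 measured, and 3 were lower at an unadjusted p under 0.05, against 10.6% of all genes. Slc7a2, the carrier CAT2 that is induced together with Nos2 in macrophages, read 7371, 8059.8 and 5879 after 15-HETE, against 16558, 13431 and 10401 in LPS samples. Its log2 fold change was -0.91 (95% interval -1.51 to -0.31, adjusted p = 0.127 from limma), and it was called lower with the intensity trend (adjusted p = 0.0211). Slc7a3 read 978.1, 991.2 and 1095 after 15-HETE, against 2285, 1703 and 2055 in LPS samples, with -0.97 (adjusted p = 0.0751). Slc7a1, the constitutive carrier CAT1, had -0.65 (adjusted p = 0.192). For these 3 cationic carriers every treated sample was below every LPS sample. Among all genes 35.3% had groups that did not overlap, in either direction. Slc7a6, Slc7a7 and their partner chain Slc3a2, which form exchangers, had 0.04, 0.38 and 0.41 with overlapping groups. The list had a median of -0.30.

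Of 12 further genes of nitric oxide synthesis, its cofactor tetrahydrobiopterin and its inhibitors 9 were measured and limma called 0. Nos1 alone was lower at an unadjusted p under 0.05, where 10.6% of all genes were. Gch1, which controls the making of the cofactor and was at percentile 98.2, read 335142, 337848 and 344968 after 15-HETE and 323568, 361844 and 364853 in LPS samples. Its log2 fold change was -0.04 (95% interval -0.45 to 0.36). The neuronal synthase Nos1 had -1.62 (adjusted p = 0.191), with treated samples from 495.1 to 2396, and the endothelial synthase Nos3 had 0.46 (adjusted p = 0.258).

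Among 14 inducers of Nos2 in LPS signalling 9 were measured and limma called 0. Tnf, the cytokine, read 28145, 25203 and 27943 after 15-HETE, against 46863, 43791 and 48053 in LPS samples, a log2 fold change of -0.77 (95% interval -1.18 to -0.36, adjusted p = 0.0870 from limma). The transcription factor Irf8 had -0.50 (adjusted p = 0.202). The groups did not overlap for 5 of the 9 genes, 4 of them lower and 1, Ly96, higher (0.54), against 35.3% of all genes. With the intensity trend Tnf and Irf8 were called lower. The list had a median of -0.31.

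Among 12 inducers and companions of Arg1 in alternative activation 11 had a probe. Limma called 1 higher and 0 lower, against 0.759% and 0.368% of all genes. The gene called was the mannose receptor Mrc1, at 12514, 10846 and 10148 after 15-HETE against 4217, 3839 and 3529 in LPS samples. Its log2 fold change was 1.53 (95% interval 1.08 to 1.98, adjusted p = 0.0395 from limma). The study lists this probe as well, so it is no independent evidence. Stat3, which carries signals of interleukin 10, had 0.88 (adjusted p = 0.116) and was called higher with the intensity trend (adjusted p = 0.0142). The list had a median of 0.02.

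Urea cycle, ornithine and proline enzymes were measured at 8 of 13 genes and limma called 0, also at an unadjusted p under 0.05. The mitochondrial ornithine carrier Slc25a15 had -0.69 (adjusted p = 0.297) and Gamt, which makes creatine, had -0.52 (adjusted p = 0.410), with overlapping groups for both. Polyamine transport was measured at 4 of 8 genes, and limma called 0. Atp13a2, the lysosomal polyamine exporter, had -0.73 (adjusted p = 0.190, or 0.0435 and called lower with the intensity trend), with 16053 to 17464 after 15-HETE and 23587 to 39313 in LPS samples, the highest of them again LPS replicate 1. Over these 7 lists together 56 of 81 genes had a probe. Limma called 2 of the 56 higher and 0 lower, against 0.759% and 0.368% of all genes. With the intensity trend it called 5 higher and 4 lower, against 5.85% and 5.33% of all genes.

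**Figure D3:**
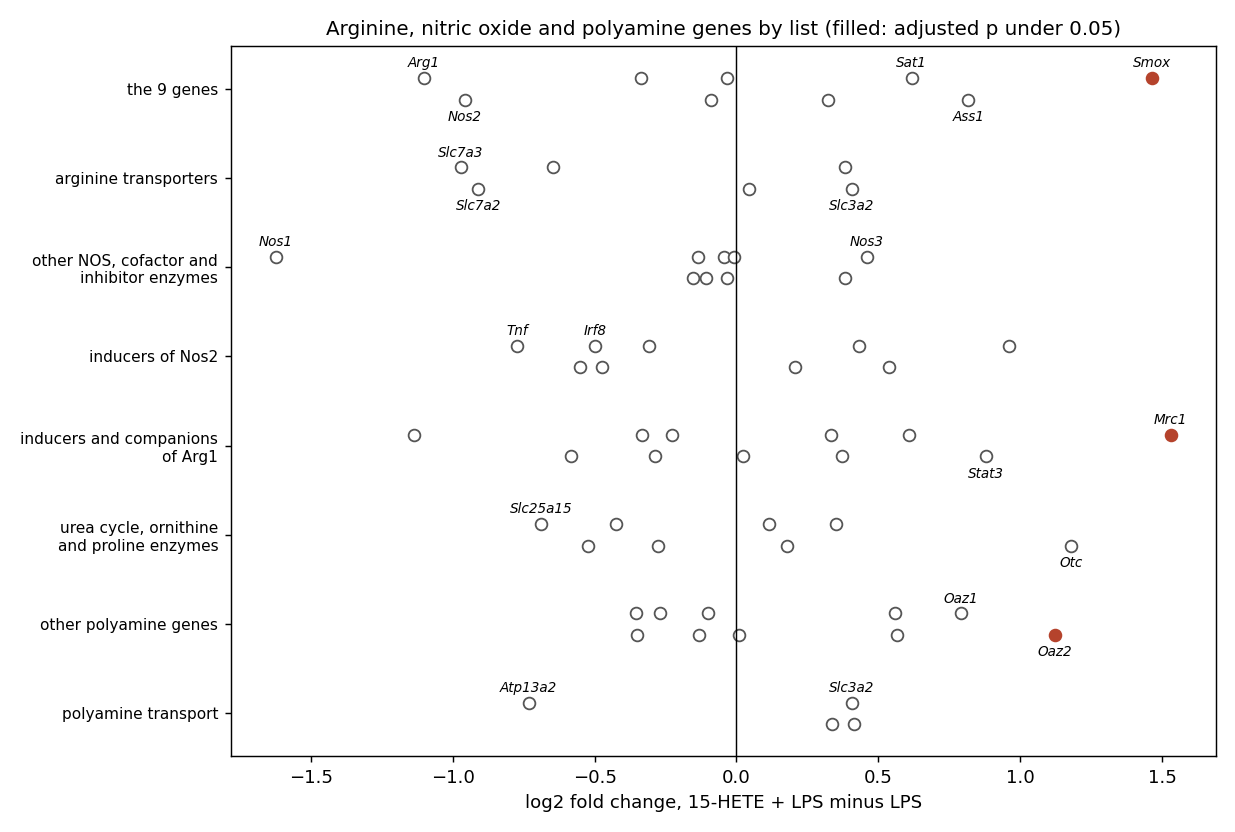
Log2 fold change (x axis, 15-HETE + LPS minus LPS) of each measured gene, by list (y axis, points offset for legibility), with the 9 genes on top. Filled points had an adjusted p under 0.05 from limma, and these are Smox (1.46), Mrc1 (1.53) and Oaz2 (1.12).

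The genes with a pattern most like that of Smox, by the root mean square difference of centred log2 values over the 6 samples among 8902 other annotated probes of above-median intensity, were Septin2 (0.070), Exoc2 (0.080) and Elmod2 (0.082). Those nearest to Nos2 were Ints1 (0.070), Tbcel (0.072) and Med15 (0.074), and those nearest to Arg1 were Mfap2 (0.121), Olfr583 (0.187) and Dpf1 (0.222). These distances are given as a description.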

How the data were processed

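Labelled cRNA made from the total RNA of 6 samples was hybridized to ABI mouse genome survey arrays and imaged on a chemiluminescent analyzer. The deposited intensity values had been quantile normalized by the authors, per the paper's methods. The later filter on signal-to-noise and flags is not in these values and could not be repeated, and background correction is not given in the sources used here. All 6 columns were matched to samples by name.

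The log2 intensities of both groups were set against each other with limma 3.58.1 under R 4.3.3, using its standard moderated two-sided test across all 33012 probes, Benjamini-Hochberg adjustment and calls at an adjusted p under 0.05. Robust fits used statmod 1.5.0. A positive log2 fold change means higher with 15-HETE. In the platform annotation 14411 probes carry 1 symbol, 247 carry several and 18354 carry none. Genes with several probes were read at the brightest one. Single values and differences between probes were compared by exact permutation of the 6 samples. Promoter sequences are those of RefSeq.

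The genes and lists were chosen with earlier results of these data known. Named were all genes of the set with each of their probes, every list gene called, and the 2 genes of lowest p in a list with fewer calls. The marker and housekeeping genes named and Slc7a1, Slc7a6, Slc7a7, Gch1, Ly96, Myc, Oaz3 and Eif5a were added after their values were seen. The labels do not say that replicates came from separate cultures on separate days, so p-values measure the spread between these samples. Which arrays were run together is not in the labels, so treatment and any batch of arrays cannot be told apart. Alternatives were other priors and tests, normalizations, an offset of 100, a filter on dim probes, array weights, other probes, a replicate block, and each sample dropped in turn. On simulated data the test missed most changes of the smallest size tried, which was larger than those of Nos2 and Ass1. A gene that was not called may thus still have changed.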

Additional observations from a re-analysis of the deposited data

How the results depend on the processing

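Smox kept its sign under every alternative run, and was called by limma with the trend, robust prior, cyclic loess, housekeeping scaling, offset, filter and array weights, at both probes and at their mean (1.90). It was not called, at the same log2 fold change of 1.46, by the methods' t-test over all probes or over those past the fold rule, or with the replicate block, and the thresholds of the methods called 0. Without 1 sample it ran from 1.37 to 1.58 with 0 calls. Genes of the set called higher thus numbered 2 with the intensity trend, the filter on dim probes and array weights, and 0 with either t-test, the replicate block and any sample left out. Genes called lower numbered 1 with the trend and the filter. These settings also called more probes of the whole array than the main fit, which called 168 higher and 146 lower. The trend called 1279 higher and 1638 lower, the filter 1207 and 1589, and array weights 626 and 582. Nos2 was called at -0.96 with the trend and the filter, and Ass1 at 0.82 with both and at 0.89 with array weights. In an alternative chosen after seeing the data, the trend with 1 sample left out, 2 to 3 genes were higher and 0 to 1 lower. Nos2 was then -1.06, -0.85 and -0.96 without treated replicates 1, 2 and 3, and -0.80, -1.02 and -1.06 without LPS replicates 1, 2 and 3, and lost its call without treated replicate 2 (adjusted p = 0.0541). Ass1 was 0.86, 0.78 and 0.80 without treated replicates 1, 2 and 3, and 0.91, 0.74 and 0.80 without LPS replicates 1, 2 and 3, and kept its call.

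The labels do not say whether the same replicate number marks paired samples. Deviations from the group means correlated across probes at -0.024, 0.0035 and 0.0237 for numbers 1, 2 and 3. With the replicate block limma called 0 probes of the array. The block leaves less information from 6 samples to estimate their spread, so this count does not show whether samples were paired. The sign of Sms turned with housekeeping scaling (0.0506), at the mean of its probes (0.23) and at its dimmer probe (0.49). With 1 sample left out Sms ran from -0.089 to 0.022 and Srm from -0.17 to 0.026. The median over the set moved to 0.0506 with housekeeping scaling, 0.14 with the filter, which drops Arg1, and 0.23 with the mean of all probes, and ran from -0.050 to 0.026 with 1 sample left out. List genes called higher numbered 5 with the trend and the filter, 1 with the robust prior, and 0 with the t-test over all probes, the replicate block and any sample left out. Those called lower numbered 4 with the trend and 3 with the filter. On the array the trend called 1279 of 33012 probes higher and 1638 lower. The filter called 1207 of the 16506 probes it kept higher and 1589 lower. The t-test past the fold rule gives no value for genes that miss that rule. The cause of these differences was not tested. Without scanner flags, the limit that background sets for dim probes such as that of Arg1 is unknown.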
